A study of Mus musculus with 24 samples.

Results

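The Zfp genes of the mouse are named for the zinc fingers of their proteins, and 341 numbered Zfp symbols had at least 1 3′UTR entry in the deposited tables. The members described here are the 174 of them, Zfp36 left out, whose highest entry held a mean of at least 100 total reads over the 24 libraries, out of 9264 genes that reached the same count and 26995 gene symbols in all. The members were thus chosen by their mean total count, so that count is a description and not a result. Zfp60 and Zfp775 lay just inside the minimum with means of 103.6 and 103.2 reads, and Zfp40 and Zfp935 just outside it with 96.5 and 96.2 reads. The group mean reached 100 in all 8 conditions for 122 members, while 1 member reached it in only 2 conditions and 2 members in 3.

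Most Zfp proteins carry arrays of C2H2 fingers, small folds held by a zinc ion, and neighbouring fingers read neighbouring bases of DNA through a short conserved linker. Many also carry a KRAB box, which recruits the co-repressor Trim28 and with it histone methylation, and this branch of the family is known for silencing retroelements and for guarding imprints. A few Zfp proteins outside that branch are known in fat biology, among them the commitment factor Zfp423 and its close homologue Zfp521.

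3T3-L1 is a clonal line of mouse embryonic fibroblasts, committed as pre-adipocytes, that become adipocytes when given dexamethasone, IBMX and insulin. Cells were grown with the solvent DMSO or with 0.5 μM ML-792, an inhibitor of the SUMO-activating enzyme that blocks sumoylation, and were collected at day −2 before induction and at days 1, 3 and 7 after it, with 3 replicates named A, B and C in each of the 8 conditions. All cells received 100 μM 4-thiouridine for 45 min before collection, so RNA made in that time carries T to C conversions in the reads. QuantSeq read the 3′ ends of polyadenylated RNA, total reads are all reads of an entry and labelled reads are those with at least 1 conversion. A single clonal line was used, and in such bulk samples fewer cells with a transcript and less transcript per cell cannot be told apart. The libraries held 13554718 to 27013352 total reads and 115709 to 820046 labelled reads over all entries. A member had a median of 226.5 total reads but only 5 labelled reads in a library, and 15.2% of its labelled values were 0 (15.5% over all genes).

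The cells followed their labels. Summed normalized counts of 8 adipocyte markers lay between 22342 and 24640 in the DMSO libraries of day −2 and between 654073 and 719603 at day 7, while 8 pre-adipocyte markers went from 336607 to 370648 down to 26959 to 40110. Markers of dividing cells were highest at day 1 (15988 to 20728, against 5020 to 6046 at day −2) and lowest at day 7 (1351 to 2196). Of 6 macrophage markers, Ptprc and Tyrobp were at 0 in every library and the sum stayed between 29.6 and 173.5. The sum of 5 endothelial markers reached 20.4, that of 5 muscle markers 496.1 at day 7 with Myf5 at 0 throughout, and that of 5 epithelial markers 476.4 at day 7 with Epcam at 0 throughout. The part of the changing cell state in the values below was not tested.

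By a profile search of the longest RefSeq protein of each gene, 74 members carried a KRAB-like box and 100 did not, and 6 had a SCAN-like motif. The members had a median of 9 fingers (range 0 to 36), with 12 in KRAB-like members and 7.5 in the others, and 6 members had no match to the finger pattern. Chromosome 7 held 42 members, which is 24.1% of them against 6.62% of all 9264 genes, chromosome 17 held 20 (11.5% against 4.56%) and chromosome 8 held 18 (10.3% against 5.66%). Neighbouring Zfp genes can be close copies, so 50-base reads may have been split between them in counting. No member entry overlapped an entry of another gene on its own strand, and 5 overlapped one on the other strand: Zfp219, Zfp276, Zfp319, Zfp397 and Zfp687.

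The linker between fingers, which sits between the last histidine of one finger and the first cysteine of the next, was found in 125 members and lay within 1 exon at its first occurrence in 115 of them. These 115 stretches of 15 bases took 79 different sequences, with a median of 2 and at most 5 differences from the most frequent base at each position. The sequences below are shown because they are the part of the genes that the family shares, and they belong to the reference and to 5 members that carry results described further on. They are coding DNA from RefSeq on GRCm38.p6, the same build as mm10, 5′ to 3′ on the coding strand, and capitals mark bases that differ from the most frequent one.
most frequent base at each position: actggagagaagccc
Zfp382, chr7:30133967-30133981, plus strand: acAggGgagaagccc
Zfp180, chr7:24105178-24105192, plus strand: acAggGgaAaagccc
Zfp809, chr9:22239082-22239096, plus strand: acGggCgagaaAccA
Zfp827, chr8:79189896-79189910, plus strand: acCggGgagCGgccc
Zfp281, chr1:136626126-136626140, plus strand: acGggCgaAaGgccT
Zfp382 differed from the top sequence at 2 bases, Zfp180 at 3, Zfp809 and Zfp827 at 4 and Zfp281 at 5, the most found in any member.

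Labelled reads made up a larger share of Zfp reads than of all reads in every library. Summed over the members, the labelled share in DMSO was 5.89% ± 0.978 at day −2 (SD, n = 3). On days 1, 3 and 7 it was 2.56% ± 0.128, 1.84% ± 0.216 and 2.21% ± 0.135. Over all 9264 genes it was 3.17% ± 0.469, 1.26% ± 0.0728, 1.01% ± 0.110 and 1.00% ± 0.0913 at the same days. The members' share was above that of all genes in 24 of 24 libraries, by 1.65 to 2.49 times with a median of 1.82 times. With ML-792 the members' share was 4.94% ± 0.476, 1.81% ± 0.0566, 1.58% ± 0.0259 and 1.58% ± 0.147 in day order. At day 1, day 3 and day 7 each of the 3 ML-792 libraries lay below all 3 DMSO libraries, and at day −2 the groups overlapped. The mean share over all genes was lower with ML-792 too, at 1.04% ± 0.0547, 0.925% ± 0.0364 and 0.814% ± 0.0320 at days 1, 3 and 7. These shares are given as a description with no test.

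**Figure D1:**
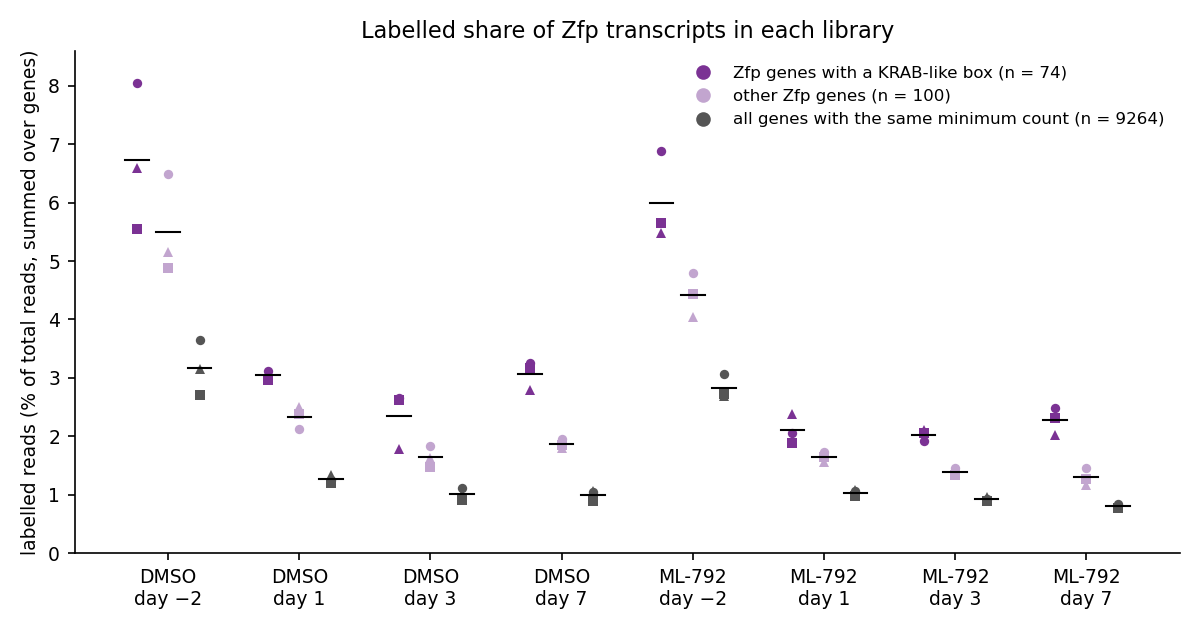
The vertical axis is labelled reads as a percent of total reads, summed over the genes of a set, and the horizontal axis the 8 conditions. Each symbol is 1 library (circle A, square B, triangle C) and each bar the mean of 3. KRAB-like members lay above the other members, and those above all genes, in 24 of 24 libraries, and the shares of all sets were highest at day −2.

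The KRAB-like branch had the higher labelled share. Its summed share was 1.09 to 1.81 times that of the other members in 24 of 24 libraries, with a median of 1.44 times. In DMSO it was 6.73% ± 1.26, 3.05% ± 0.0794, 2.35% ± 0.497 and 3.07% ± 0.249 in day order (SD, n = 3), against 5.51% ± 0.861, 2.34% ± 0.196, 1.65% ± 0.185 and 1.87% ± 0.0836 in members without the box. Gene by gene over the 12 DMSO libraries, the median share was 3.25% in members, with quartiles of 2.21% and 4.5%, and 1.38% over all genes. KRAB-like members had a median of 3.79% and the others 2.92%, and the median was 2.15% with under 5 fingers, 3.16% with 5 to 9 and 3.85% with at least 10. The related families had medians of 3.20% in 26 Zbtb genes and 2.85% in 10 Zscan and Zkscan genes, both under that of the members, but at day −2 alone their 6.27% and 5.71% lay above the 5.35% of the members. Of the members, 71.8% were at or above 2.33%, the upper quartile of all genes, and 36.2% at or above 3.85%, the 0.9 quantile of all genes.

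The measure depends on what could be converted and on depth, among other things, and both of these were set beside it. All 24 libraries were labelled, so the share of conversions that arises without the label was not measured. Uptake of 4-thiouridine at each day was not tested. The T content of the members' entries had a median of 29.3% against 29.1% over all genes. Within the same range of mean total counts the medians were 3.64% in members against 1.77% in all genes (100 to under 200 reads), 2.82% against 1.54% (200 to under 500 reads) and 3.21% against 1.21% (at least 500 reads). KRAB-like members had 4.11% against 3.26% in the other members in the lowest of these ranges and 3.55% against 2.43% in the middle one, and both had 3.21% in the highest, which held 6 and 21 of them.

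Members differed widely among themselves. Among the 9 with a mean of at least 1000 total reads, the share pooled over the 12 DMSO libraries was highest in Zfp131, a member with a BTB domain, at 4.23% (exact 95% interval 3.91% to 4.57%, 633 of 14961 reads). Zfp516, which binds the Ucp1 promoter in brown fat, followed with 4.13% (3.83% to 4.44%), and Zfp703, a transcriptional co-repressor known from breast cancer, with 4.11% (3.86% to 4.37%). The lowest were Zfp207, a spindle protein that carries Bub3 to kinetochores, with 0.930% (0.819% to 1.05%) and Zfp771 with 0.803% (0.661% to 0.966%). The intervals of the leading 3 overlap and lie above those of the lowest 2. They cover counting error only, since reads without molecular identifiers are not independent molecules. In Zfp131 the share went from 9.56% at day −2 to 2.02%, 2.08% and 2.13% at days 1, 3 and 7, whereas Zfp703 had 5.32%, 3.88%, 5.31% and 2.99% and Zfp516 7.21%, 4.14%, 1.78% and 2.56% in day order. Of these 3, Zfp131 thus led at day −2 only, and after induction its share was below that of Zfp703 at each day and below that of Zfp516 at days 1 and 7.

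In control cells, total reads of Zfp genes were highest before induction more often than at any other day. Of the 174 members, 76 (43.7%) had their highest DMSO mean at day −2, 40 (23%) at day 1 and 29 (16.7%) on each of the later days, while over all genes the shares were 29.5%, 19.5%, 23.9% and 27.1%. Each later day was set against day −2 with the quasi-likelihood test of edgeR, and genes were called where the p adjusted by Benjamini-Hochberg over all 26563 entries tested was under 0.01. The days share the libraries of day −2. P-values here measure only the spread between these samples.

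At day 1, 3 members rose and 10 fell, where 8.3% of all genes rose and 10.7% fell. At day 3, 6 members rose and 22 fell, against 21.1% and 19.7% of all genes. At day 7, 6 members rose and 34 fell, against 21.4% and 20.7%. In percent of the members these are 1.72% and 5.75%, then 3.45% and 12.6%, then 3.45% and 19.5%, so over all counts the share that fell by day 7 was near that of all genes and the share that rose was under it. The median log2 fold change of members was -0.15, -0.19 and -0.30 on the 3 days, and that of all genes was 0.02, 0.08 and 0.02.

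**Figure D2:**
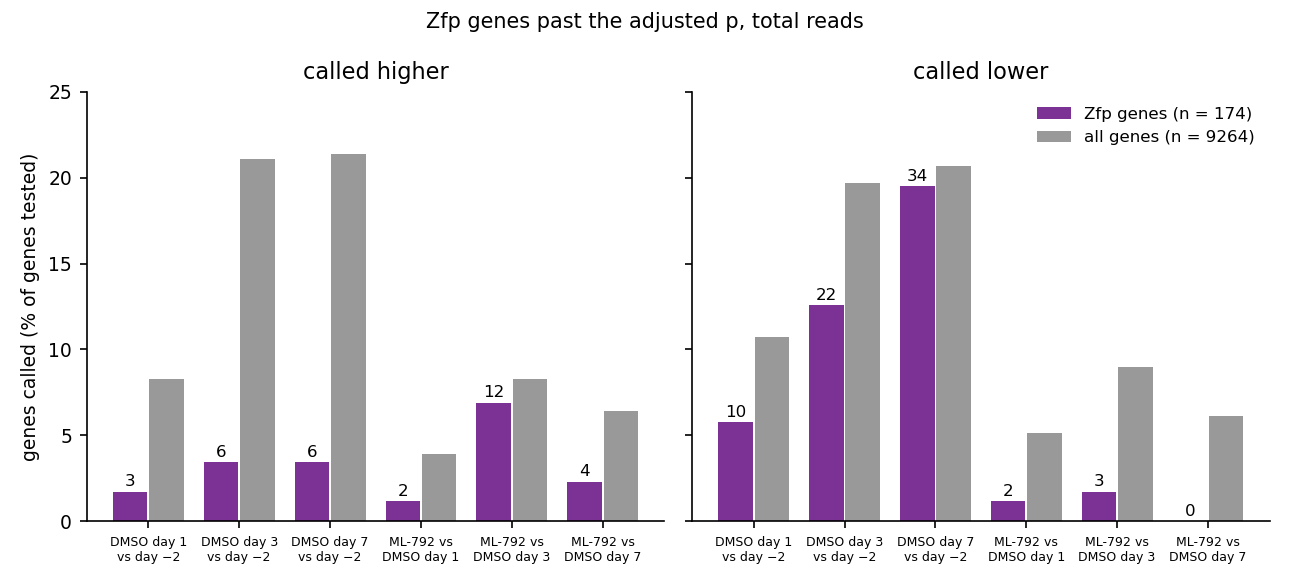
Bars give the percent of genes called higher (left) and lower (right) in total reads for each of 6 comparisons, purple for the 174 Zfp genes and grey for all 9264 genes, and the number on each purple bar is the count of members. At day 7 in DMSO 6 members rose and 34 fell, against 21.4% and 20.7% of all genes.

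Low counts make calls harder, so the day 7 calls were also read within count ranges. From 100 to under 200 reads 1 of 69 members rose, as did 248 of 1438 genes. From 200 to under 500 reads 2 of 78 members and 486 of 2812 genes rose, and at 500 reads or more 3 of 27 members and 1249 of 5014 genes. In the same order of ranges, 10 of 69 members fell beside 359 of 1438 genes, 19 of 78 beside 572 of 2812, and 5 of 27 beside 990 of 5014, which in the lowest range is a smaller share of the members than of all genes (the difference was not tested). All 14 KRAB-like members called at day 7 fell (median of all 74, -0.32), while among the others 20 fell and 6 rose (median of all 100, -0.25). With at least 10 fingers 21 fell and 2 rose (median of 85, -0.49). As 20.7% of all genes fell, the falls of 14 of 74, 20 of 100 and 21 of 85 members are near the background. Rises were called in 21.4% of all genes. Among the related families 2 Zbtb genes rose and 2 fell (median of 26, -0.00331), and 1 Zscan or Zkscan gene rose and 2 fell (median of 10, 0.00622). Of the 40 members called at day 7, 14 stayed called without replicate A, 31 without B and 19 without C, and 13 in all 3 cases, with no sign changed. At day 1 only 2 of 13 stayed called without A or without C, and all 13 without B.

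**Figure D3:**
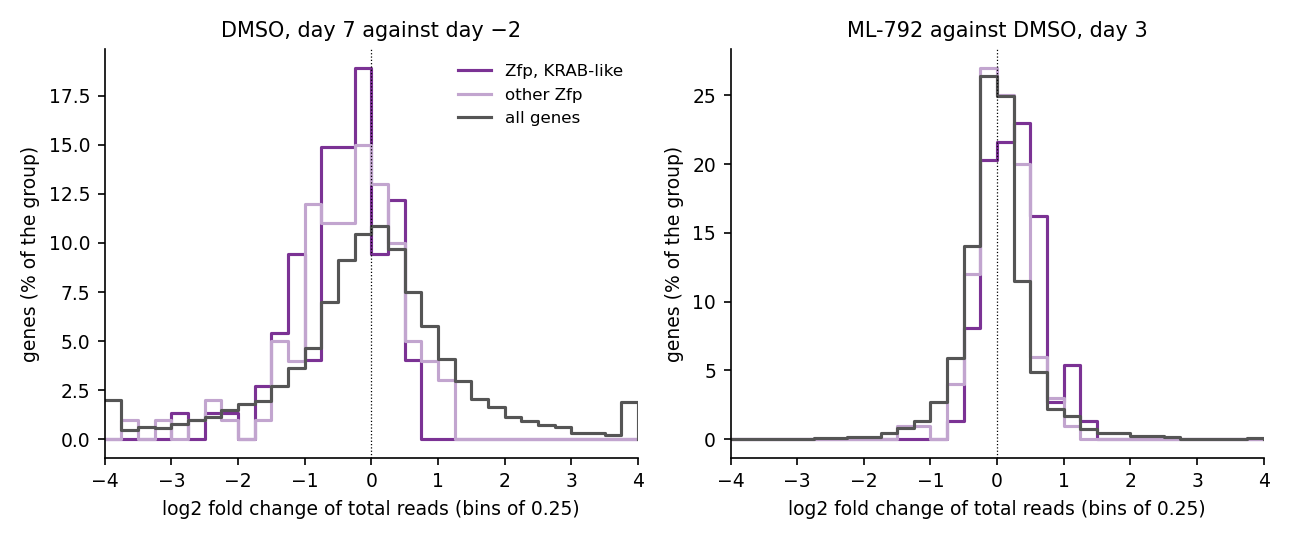
Lines give the percent of genes in each bin of 0.25 of the log2 fold change of total reads, with day 7 set against day −2 in DMSO on the left and the ML-792 effect of day 3 on the right, in KRAB-like members, other members and all genes. Values beyond ±4 are counted in the end bins. The medians at day 7 were -0.32, -0.25 and 0.02, and at day 3 under ML-792 0.23, 0.04 and -0.02.

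Zfp827, which brings the NuRD complex to telomeres, fell the farthest at day 1 and at day 7. Its normalized total count in DMSO (entry on mm10 chromosome 8, 79189667 to 79193766) was 739, 742 and 644 in A, B and C at day −2. At day 1 the 3 libraries held 89.6, 128 and 95, at day 3 59.5, 57.2 and 80.6, and at day 7 59.7, 65.0 and 60.7. Every later library lay below every day −2 library by a wide margin. The log2 fold change was -2.76 (SE 0.22, edgeR adjusted p = 4.53e-07) at day 1 and -3.52 (SE 0.24, edgeR adjusted p = 8.81e-09) at day 7, and the calls stood without any 1 replicate.

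Zfp382, a KRAB repressor, declined step by step (chromosome 7, 30134666 to 30140758). It had 304, 510 and 244 at day −2, then 158, 179 and 158, then 69.5, 123 and 39.1, and at day 7 65.3, 34.0 and 33.2 normalized total reads. No library of a later day reached the lowest of day −2. Its log2 fold change at day 7 was -2.99 (SE 0.41, edgeR adjusted p = 2.07e-05). Zfp41 had 309, 147 and 421 reads at day −2 and 75.5, 53.6 and 65.3 at day 7, a log2 fold change of -2.17 (edgeR adjusted p = 0.000536, 0.0112 without A only). The day 7 counts of Zfp382 and Zfp41 all lay below the minimum of 100 reads. Both thus passed the minimum through groups where they were high, such as day −2, and their falls are a description only. Zfp281, which binds GC-rich promoters and is known from pluripotent cells, fell from 1840, 2241 and 1466 to 466, 196 and 443 at day 7, by 2.33 on the log2 scale (edgeR adjusted p = 3.57e-05), and its day 3 call was lost without A (0.050) or C (0.0242). In total reads it was the only one of 6 listed promoter-binding members to be called at day 3 or day 7, where 40.8% and 42.1% of all genes were called.

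The few members that rose are no KRAB-like genes, except for Zfp961 at day 3. Zfp706, a small protein with 1 finger that restrains Klf4 in embryonic stem cells, had 1395, 1660 and 1496 reads at day −2, 2512, 3375 and 2591 at day 1, 4859, 5835 and 6022 at day 3, and 3010, 3634 and 3164 at day 7. It rose at each day, by 0.90, 1.88 and 1.11 on the log2 scale (edgeR adjusted p = 0.00131, 4.55e-07 and 7.63e-05), was highest at day 3, and lost the day 1 call without A (0.0585) or C (0.0310). Zfp503, a co-repressor that acts in embryonic patterning, rose by 1.01 at day 1, with 1728, 2942 and 2057 reads before and 4214, 5639 and 3661 after (edgeR adjusted p = 0.0024, 0.101 without A and 0.0327 without C). Zfp207 rose by 0.57 at day 1 (edgeR adjusted p = 0.00983) from 1748, 1712 and 1553 to 2351, 2603 and 2468, and its call was lost without A (0.167) or C (0.149). At day 1 the markers of dividing cells were highest too, and their part was not tested. Zfp768 was 553, 433 and 497 at day −2 and 962, 1254 and 987 at day 7, a log2 fold change of 1.11 (edgeR adjusted p = 9.81e-05). Zfp775, also among the 6 that rose by day 7, was 66.7, 92.5 and 106 at day −2 and 164, 224 and 165 at day 7. Its mean lay just above the minimum and its day −2 mean below it, so that it passed through the groups where it was high, and its values are a description only.

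Of 8 members tied to fat cells by earlier work, 3, 2 and 2 fell on days 1, 3 and 7 in DMSO, and none rose. As 10.7%, 19.7% and 20.7% of all genes fell on these days, the counts on days 3 and 7 are near the background. Zfp521, which holds back adipocyte formation, had 984, 1061 and 1002 normalized total reads at day −2 and 459, 528 and 451 at day 1. At day 3 it was down to 56.2, 58.4 and 69.7, and at day 7 it stood at 75.5, 159 and 123. The days did not overlap with day −2, and the log2 fold changes were -1.08, -4.05 and -3.09 (edgeR adjusted p = 0.00215, 6.56e-09 and 4.84e-08), with the day 1 call lost without A (0.0435) or C (0.0554). Its labelled reads went the same way, with 80, 58 and 87 raw reads at day −2 and 0 in all 3 libraries of day 3, at least 55.4-fold lower when 3 reads over the group are taken as the most that a count of 0 allows.

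Zfp423, which commits cells to the pre-adipocyte fate, dipped at day 1. It had 527, 514 and 524 reads at day −2, 124, 201 and 126 at day 1, 318, 339 and 309 at day 3, and 357, 390 and 348 at day 7. Only the day 1 difference was called, at a log2 fold change of -1.79 (SE 0.21, edgeR adjusted p = 1.61e-05), and its labelled reads fell at that day too, from 28, 20 and 51 raw reads to 1, 0 and 5 (log2 fold change -3.95, edgeR adjusted p = 0.000122, 0.0142 without A). Zfp467, which favours the adipocyte over the osteoblast, had 218, 170 and 240 reads at day −2, 79.7, 58.2 and 75.3 at day 1, 46.3, 26.9 and 41.5 at day 3 and 142, 144 and 177 at day 7. It fell by 1.56 at day 1 (edgeR adjusted p = 0.000531) and by 2.45 at day 3 (edgeR adjusted p = 4.39e-06), and the day 1 call was lost without A (0.0315) or C (0.0253). Zfp516 differed from these by its late change in total reads, with 1383, 1723 and 1317 reads at day −2, 1322, 1465 and 1207 at day 1, 1944, 2101 and 2316 at day 3, and 787, 623 and 742 at day 7, where it had fallen by 1.04 (edgeR adjusted p = 0.00012). Its labelled reads were lower by day 3 already, at 97 over the group against 370 at day −2 (log2 fold change -1.48, edgeR adjusted p = 0.00435). That call was lost without A (0.128) or C (0.0136).

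The rest of these genes were not called in total reads on any day. Zfp407, linked to glucose uptake in fat cells, had means of 188 ± 38.6 at day −2 and 134 ± 1.69 at day 7 (SD, n = 3), and Zfp217, an oncogene also tied to adipogenesis, 349 ± 90.3 and 213 ± 41.2. Labelled reads of Zfp217 were called lower at day 3 (edgeR adjusted p = 0.00549, 0.0875 without A and 0.0661 without C) and at day 7 (edgeR adjusted p = 0.000285, 0.0355 without A). Zfp395 had 275 ± 56.8 and 186 ± 47.5. Zfp638, a cofactor of C/EBP proteins, scattered from 31.8 to 191 over the 3 libraries of day 3, so no difference could be told from its replicate error.

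**Figure D4:**
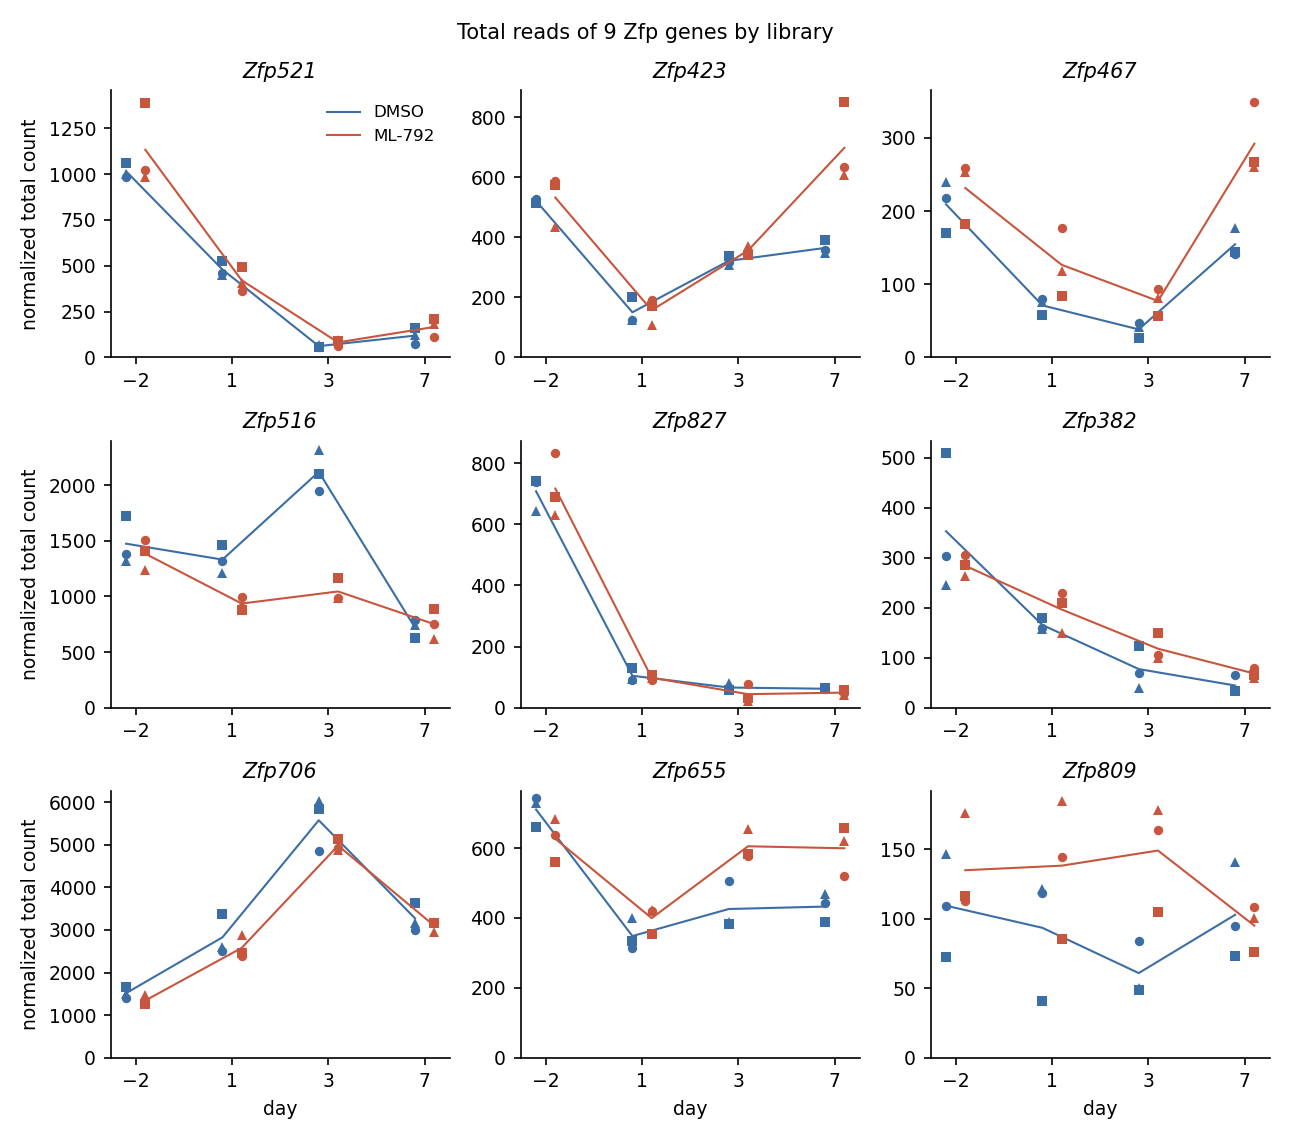
Normalized total counts of 9 Zfp genes are plotted against day, blue for DMSO and red for ML-792, with 1 symbol per library (circle A, square B, triangle C) and lines through the group means. Zfp521 and Zfp827 dropped from day −2 in both treatments, Zfp516 was higher in DMSO than in ML-792 at day 3, and Zfp423 and Zfp467 were higher in ML-792 at day 7.

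Few Zfp genes were called under ML-792 in fits without the replicate letter, and most of those called were higher. With the letter added, more members were called at days 1 and 7, as given in the closing section. Treated and control cells were compared within each day by edgeR on all 24 libraries and called at an adjusted p under 0.1. At day −2 no member was called, as of all genes (0%), with 2 members at an unadjusted p under 0.05 and 0 called by DESeq2. At day 1, 2 members rose and 2 fell, against 3.92% and 5.15% of all genes. At day 3, 12 rose and 3 fell, against 8.26% and 8.99%, and at day 7, 4 rose and 0 fell, against 6.44% and 6.13% (2 members were lower at an unadjusted p under 0.05, and DESeq2 called 0 lower). The median log2 fold change of members was 0.04, 0.08, 0.13 and 0.08 in day order, against -0.02, -0.04, -0.02 and -0.01 over all genes. In KRAB-like members it was 0.14, 0.23 and 0.14 on days 1, 3 and 7, and in the others 0.04, 0.04 and 0.05.

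The 6 KRAB-like members called at day 3 all rose: Zfp110, Zfp111, Zfp141, Zfp809, Zfp942 and Zfp944, by 0.57 to 1.29 on the log2 scale. As 8.26% of all genes were called higher at that day, 6 of 74 KRAB-like members is near the background. Zfp809, which silences retroviral DNA together with Trim28, had 83.8, 49.1 and 50.1 normalized total reads in DMSO and 164, 105 and 179 in ML-792 at day 3. All 3 treated libraries lay above the 3 controls, for a log2 fold change of 1.29 (SE 0.39, edgeR adjusted p = 0.0369), and the call was lost without A (0.225) or C (0.361). The DMSO counts of Zfp809 at day 3 all lay below the count minimum of a member and its ML-792 counts above it, so this difference is a description only. Zfp944, at 106, 66.6 and 61.1 against 120, 162 and 248, and Zfp942, at 169, 82.9 and 66.0 against 206, 227 and 250, showed the same order with log2 fold changes of 1.18 (edgeR adjusted p = 0.0645, 0.181 without B and 0.626 without C) and 1.10 (edgeR adjusted p = 0.0957, 0.399 without B and 0.484 without C). Both lie on chromosome 17 within a group of like genes, and in both the DMSO counts of B and C also lay below the minimum. Of the 15 members called at day 3, 3 stayed called without A, 12 without B and 2 without C, and Zfp516 alone in all 3 cases.

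Zfp516 was the clearest case. At day 3 its normalized total count was 1944, 2101 and 2316 in DMSO and 989, 1162 and 983 in ML-792, which is lower in all 3 treated libraries by 1.02 on the log2 scale (SE 0.15, edgeR adjusted p = 5.3e-05, 0.0239 without A and 0.0169 without C). At day 1 it was lower too, with 1322, 1465 and 1207 against 992, 881 and 935 (log2 fold change -0.51, edgeR adjusted p = 0.058), a call lost without A (0.447), B (0.103) or C (0.231). At day 7 the groups overlapped, with 787, 623 and 742 against 749, 884 and 618. The difference between days was itself tested, and the interaction of day and treatment was called for Zfp516 (edgeR adjusted p = 0.00609, 0.346 without A and 0.166 without C) and Zfp428 (0.087, 0.704 without A and 0.594 without C), which are 2 of 174 members where 13.8% of all genes were called. That fit left out the replicate letter, and with the letter added more members were called for the interaction.

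Zfp467 was higher with ML-792 at each day after induction. It had 177, 84.3 and 118 reads against 79.7, 58.2 and 75.3 in DMSO at day 1, 93.0, 56.9 and 81.3 against 46.3, 26.9 and 41.5 at day 3, and 349, 267 and 261 against 142, 144 and 177 at day 7. The treated libraries lay above all controls at each of these days, by 0.83, 1.01 and 0.92 on the log2 scale (edgeR adjusted p = 0.0875, 0.0266 and 0.0329), and each call was lost without A (0.691, 0.198 and 0.421) or C (0.381, 0.259 and 0.220). The DMSO counts of Zfp467 at day 1, and all its counts at day 3, lay below the count minimum of a member. Its differences at day 1 and day 3 are thus a description only. Zfp423 was higher at day 7, with 636, 853 and 607 against 357, 390 and 348 (log2 fold change 0.94, SE 0.20, edgeR adjusted p = 0.00398, 0.123 without A only). The sum of pre-adipocyte markers was also higher in ML-792 at that day, 47428 to 65088 against 26959 to 40110, as was that of adipocyte markers, 854224 to 926172 against 654073 to 719603, and their part in these values was not tested. Zfp655 at day 7 had 521, 656 and 621 against 443, 388 and 467 (log2 fold change 0.47, edgeR adjusted p = 0.0705, lost without any 1 replicate).

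Among the other named members, Zfp180 rose at day 1, with 488, 597 and 569 against 301, 420 and 302 (log2 fold change 0.69, edgeR adjusted p = 0.0585), and at day 3, with 432, 566 and 612 against 257, 298 and 422 (0.72, edgeR adjusted p = 0.0289). Zfp740 was lower at day 1 with 465, 443 and 565 against 668, 861 and 605 (-0.53, edgeR adjusted p = 0.0967). Zfp41 was lower at day 3 with 18.6, 38.8 and 25.9 against 61.8, 45.6 and 115 (-1.42, edgeR adjusted p = 0.0594), and so was Zfp277, a Polycomb partner at the Ink4a/Arf locus, with 203, 211 and 201 against 251, 398 and 298 (-0.62, edgeR adjusted p = 0.0777). In each of these the groups did not overlap, and each call was lost when A or C was left out. The Zfp41 counts of day 3 all lay below the count minimum of a member in ML-792, and in DMSO only C reached it. As stated above, Zfp41 passed that minimum through groups where it was high, so its difference at day 3 is a description only.

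The co-repressors that KRAB proteins work through were read from a fixed list, of which 18 of 22 genes had an entry of the same depth. Trim28 itself was not called on any day or under ML-792 (log2 fold change -0.37 at day 7 in DMSO, edgeR adjusted p = 0.424). Setdb1, the histone methyltransferase it recruits, rose at day 1 by 1.86 (edgeR adjusted p = 6.84e-05), Dnmt1, the maintenance DNA methyltransferase, fell by 2.04 at day 7 (edgeR adjusted p = 3.51e-06), and Dnmt3a, which methylates DNA anew, rose by 0.74 at day 3 and by 0.62 at day 7, both lost without A (0.0696 and 0.124) or C (0.0505 and 0.0672). Under ML-792, Atf7ip, the partner that stabilises Setdb1, rose by 1.61, 1.07 and 1.04 at days 1, 3 and 7 (edgeR adjusted p = 5.35e-08, 6.76e-06 and 1.9e-05). Setdb1 rose at day 1 by 0.66 (edgeR adjusted p = 0.0876, 0.599 without A and 0.550 without C) and Dnmt3a fell by 0.71 at day 3 (edgeR adjusted p = 0.00599, 0.295 without C). Of the 3 members listed for retroelements and imprints, Zfp568, which represses a placental Igf2 transcript, fell at day 7 in DMSO from 372, 334 and 361 to 177, 174 and 142 (log2 fold change -1.11, edgeR adjusted p = 0.000268, 0.0181 without A and 0.0173 without C). Zfp809 rose under ML-792, and Zfp445, a guardian of imprints, was not called in total reads by day or treatment. Of all genes, 20.7% fell at day 7 in DMSO and 8.26% rose under ML-792 at day 3. Labelled reads of Zfp445 fell by 2.26 at day 1 (edgeR adjusted p = 0.0029, lost without any 1 replicate) and by 2.35 at day 7 (edgeR adjusted p = 0.00161, 0.0498 without A and 0.0187 without C). Of 9 members listed for RNA, ribosome or spindle roles, only Zfp207 was called by day in total reads, and none under ML-792. In labelled reads only Zfp622, a factor of ribosome assembly, was called among them, lower by 2.85 at day 3 (edgeR adjusted p = 2.68e-05, 0.0171 without C) and by 1.81 at day 7 (edgeR adjusted p = 0.00575, lost without any 1 replicate). Over all genes, 19%, 40.8% and 42.1% were called in total reads by day at days 1, 3 and 7. Under ML-792 these shares were 9.07%, 17.2% and 12.6%, and labelled reads fell by day in 13.7%, 21.8% and 19.8%. Of 5 developmental members only Zfp703 was called under ML-792, higher at day 3, from 937, 599 and 1212 to 2187, 1203 and 1607, with the groups overlapping by 1 library of each (edgeR adjusted p = 0.0792, 0.593 without A and 0.154 without C).

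Labelled reads fell in Zfp genes as they did in the whole table. On the scale of the total library sizes, 18, 35 and 32 members fell on days 1, 3 and 7, where 13.7%, 21.8% and 19.8% of all genes fell. In percent these are 10.3%, 20.1% and 18.4% of the members, near the values of all genes at days 3 and 7. No member rose by edgeR on any of these days, with 0 higher at an unadjusted p under 0.05 and 0 by DESeq2. Few genes rose in the whole table either, with 0.421%, 1.41% and 1.55% of all genes called higher by edgeR. The median log2 fold change was -1.33, -1.81 and -1.77 in members and -1.13, -1.47 and -1.34 over all genes. With genes at 0 set at their bound, the medians were -1.33, -1.80 and -1.69 in members and -1.12, -1.43 and -1.30 over all genes. When a library's labelled counts were instead divided by its own sum of labelled reads, so that a fall common to all genes drops out, 4 members were called at each day, of which 1, 1 and 0 rose.

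Among members with labelled reads at day 7, Zfp382 went from 98 to 3 reads over the group, 25.5-fold lower (95% counting interval 8.49 to 126), Zfp521 from 225 to 9, 19.5-fold lower, and Zfp827 from 119 to 6, 15.5-fold lower. For 5 members only a bound could be given at day 7, and bounds cannot be ranked against these folds. Zfp608 had 17, 12 and 14 labelled reads at day −2 and 0 in each library of day 7, at least 11.2-fold lower (edgeR adjusted p = 0.00119), Zfp710 had 18, 4 and 5 and then 0, at least 7.04-fold lower (edgeR adjusted p = 0.00625), and Zfp811 had 5, 12 and 6 and then 0, at least 5.99-fold lower (edgeR adjusted p = 0.00677). Each bound takes 3 reads over the group, and the calls rest on 43, 27 and 23 reads. All 3 were lost without A (0.0387, 0.174 and 0.0529) and without C (0.0187, 0.0336 and 0.0403), and the last 2 also without B (0.0163 and 0.0714). Zfp131 kept labelled reads at every day but fell at each, by 2.29 at day 7 (edgeR adjusted p = 1.38e-05, 0.0362 without A only).

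ML-792 changed labelled reads of no member past the threshold. At days −2, 1, 3 and 7 edgeR called 0 members, where 0%, 0.745%, 0.82% and 0.615% of all genes were called. At an unadjusted p under 0.05 there were 0, 20, 9 and 11 members, and DESeq2 called 0, 3, 0 and 0. At a median of 5 labelled reads in a library, large differences could be missed as well as small ones. In simulated labelled counts of the day 7 comparison in DMSO, 0% of log2 changes of 1 and 14.4% of changes of 2 were recovered.

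The replicate letters also separated Zfp genes. With the letter added to the conditions, 43 members (24.7%) were called for the letter at an adjusted p under 0.01, where 37.3% of all genes were called. Over the 43, B lay above the mean of A and C in 23 and below it in 20, by a median of 0.49 on the log2 scale, and in 16 it lay outside A and C in all 8 conditions. B was the letter that deviated most in 36 of the 43, and A or C deviated more in the rest. Zfp617 had 365, 273 and 497 reads in A, B and C of day −2 in DMSO and 730, 300 and 832 at day 7 (edgeR adjusted p = 1.11e-10 for the letter). Zfp275 had 957, 525 and 1102 at day −2 (6.35e-10), and Zfp335, a subunit of a histone methyltransferase complex needed in neural progenitors, 399, 215 and 497 (4.71e-08). Without B, 1 of the 43 stayed called, against 29 without A and 31 without C. Among the genes described above, Zfp521, Zfp467, Zfp503, Zfp277, Zfp809, Zfp703, Zfp217, Zfp395, Zfp445 and Zfp771 were called for the letter, as were the co-repressors Trim28 (edgeR adjusted p = 1.95e-09) and Dnmt3a (0.00118).

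**Figure D5:**
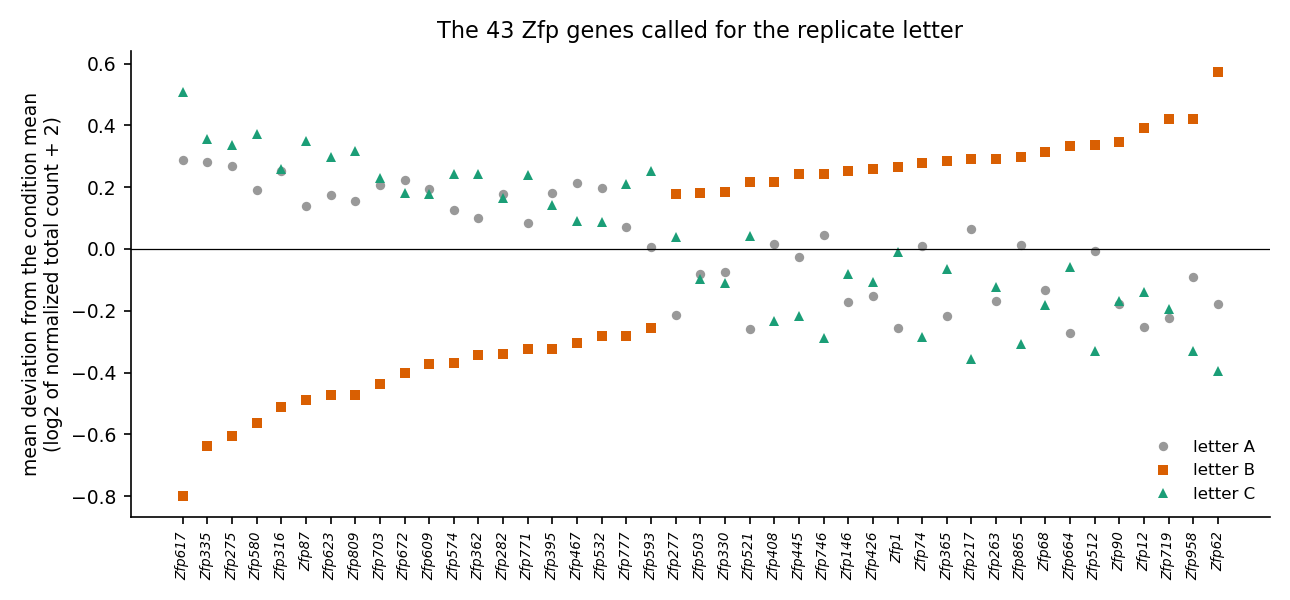
For each of the 43 Zfp genes called for the replicate letter, the mean deviation of A (grey circle), B (orange square) and C (green triangle) from the condition mean is given in log2 of the normalized total count, ordered by B. B lay below A and C in the 20 genes at one end and above both in the 23 at the other.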

How the data were processed

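The authors aligned QuantSeq reads to mm10 with SlamDunk and deposited raw counts per RefSeq 3′UTR entry and library, 1 table of all reads and 1 of reads with at least 1 T to C conversion. Other SlamDunk settings were left at their defaults, and the study's methods do not spell out what these do with reads of several matches. Of their library columns, 6 matched no sample and were left out. Groups came from the sample titles.

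Counts were fitted as deposited with edgeR 4.0.16 (R 4.3.3, limma 3.58.1), with TMM scaling and the quasi-likelihood test over all entries kept by filterByExpr. Labelled counts of entries with a mean of at least 100 total reads were fitted on the library sizes of the total reads, 16036 entries in all. The labelled share is labelled over total counts. Normalized counts are scaled to the effective library size. Calls took an adjusted p under 0.01 for days and letters and under 0.1 for ML-792 and the interaction. The scripts were tested on simulated data, where the day 7 comparison of total reads recovered 7.78% of log2 changes of 1 and 62.7% of changes of 2. For a gene with several entries, the one with most total reads on average was used. DESeq2 1.42.0, other filters and scalings, a replicate block and leaving out each replicate were tried as alternatives.

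Proteins were searched with PyHMMER 0.12.3 and Biopython 1.88 for KRAB-like boxes, C2H2 fingers and linkers. Named genes were the 8 tied to fat cells, the 3 highest and 3 lowest called members with non-overlapping groups in the main comparisons, the 3 with the highest labelled share among members with at least 1000 reads, the 3 with the smallest p for the letter, and those at the count minimum. Others named belong to fixed lists or were chosen after their values were seen, such as Zfp961, Zfp428 and the lowest shares. The members and lists were chosen with earlier results of these data known.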

Additional observations from a re-analysis of the deposited data

Results flagged for a closer look

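The ML-792 effect on total reads differed between days for 2 Zfp genes by the test of the interaction in edgeR. For Zfp516 the adjusted p was 0.00609, with log2 fold changes of -0.51 at day 1 and -1.02 at day 3 and overlapping groups at day 7. For Zfp428 the adjusted p was 0.0870, with 313, 271 and 208 normalized total reads in ML-792 against 152, 183 and 143 in DMSO at day 3. Neither call stood without replicate A or without replicate C.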

How the results depend on the processing

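Counts of called members moved by over 1.5 times as follows, and the cause was not tested. DESeq2 called 20 at day 1 in DMSO, 8 under ML-792 at day 7, 5 for the interaction and 3 in labelled reads under ML-792 at day 1. With a filter of at least 10 reads, ML-792 gave 1 at day 1 and 2 at day 7, and the interaction 1. Fits of the 6 libraries of the day gave 0, 7 and 2 under ML-792 at days 1, 3 and 7. With 1 entry per gene 1 member was called in labelled reads under ML-792 at day 1. Labelled counts scaled by labelled reads gave 4 at each DMSO day, and filterByExpr on labelled counts left 71 members to test and gave 10 at day 1 and 22 at day 3. The median labelled share divided by the T fraction of the entry was 10.9%, and a minimum of 200 reads left 105 members. With the replicate block, 23, 44 and 61 members were called at days 1, 3 and 7 in DMSO, 7 and 17 under ML-792 at days 1 and 7, 15 for the interaction and 3 in labelled reads under ML-792 at day 1. The letters were not taken to pair the samples, since 70 of 84 same-letter pairs, and not all, correlated over 0.1 (mean r 0.213, lowest -0.122). Of pairs with different letters 24 of 168 did (mean r -0.104), so the letters carry a shared effect that the main fits leave out.

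Leaving out 1 replicate gave 2 to 18 calls at day 1, 10 to 39 at day 3 and 14 to 44 at day 7 in DMSO, 0 to 3, 2 to 15 and 0 to 6 under ML-792 on the same days, 0 to 6 for the interaction, 1 to 34 for the letter, and 2 to 19, 7 to 28 and 8 to 25 in labelled reads at days 1, 3 and 7. Signs turned only in log2 fold changes that were not called, given here as the range without 1 replicate. These were Zfp423 (-0.23 to 0.26) and Zfp407 (-0.10 to 0.25) under ML-792 at day 1, Zfp516 under ML-792 at day 7 (-0.16 to 0.21), Zfp638 at day 1 (-0.55 to 0.21) and day 7 (-0.55 to 0.030) in DMSO and under ML-792 at day 1 (-0.35 to 1.05) and day 3 (-0.15 to 1.32), and Zfp217 at day 3 in DMSO (-0.063 to 0.042, and -0.017 with 1 entry per gene) and under ML-792 at day 7 (-0.073 to 0.023). Of 587 alternatives for 74 results on single genes, 482 kept their direction and side of the threshold. Depth limits labelled reads most, as 0% of simulated log2 changes of 1 and 14.4% of changes of 2 were recovered at day 7.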
